A study of Mus musculus with 6 samples.

Results

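The superoxide dismutases and catalase form a small group of antioxidant enzymes that was examined here as 5 genes. They are *Sod1*, *Sod2* and *Sod3*, the copper chaperone *Ccs* and catalase (*Cat*), among 53465 Ensembl genes in the deposited count table. The 5 genes were chosen by gene symbol and not by a cut-off on their values, but with earlier results of these data known. Each symbol matched 1 identifier. RNA was sequenced from 6 pools of oocytes at the MII stage, 3 control pools and 3 pools matured in vitro with 10 μM quercetin. Each pool combined 15 oocytes from 3 female Kunming (KM) mice aged 9 to 10 months, so control and treated oocytes alike came from aged animals of an outbred stock. Per the methods, the mice had been primed with pregnant mare serum gonadotropin, and cumulus cells were removed by pipetting before culture in M16 medium. Quercetin, a plant flavonol, was dissolved in DMSO, and whether control medium held DMSO is not given in the sources used here.

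Superoxide dismutases convert superoxide, the radical that leaks from the respiratory chain and from oxidases, into oxygen and hydrogen peroxide. SOD1 uses copper and zinc and works in the cytosol and the mitochondrial intermembrane space, SOD2 uses manganese and works in the mitochondrial matrix, and SOD3 is a secreted copper and zinc enzyme. CCS hands copper to SOD1. Catalase, an iron enzyme of the peroxisome, breaks hydrogen peroxide down to water and oxygen, a task it shares with peroxiredoxins and glutathione peroxidases. The study asked how quercetin acts on aged oocytes and followed SOD2 as a protein whose lysine 68 (K68) can be acetylated. It proposes that the deacetylase SIRT3 removes this mark. It also made a claim on the transcript, naming *Sod2* among the genes raised by quercetin and reporting its significant increase by qPCR. The comparison here asked whether the transcripts of these enzymes differed between quercetin and control pools, compartment by compartment.

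Total counts ran from 7880467 to 9938743 reads per pool. Values of single genes are given in counts and in CPM, that is counts relative to library size, scaled by edgeR's TMM factors. With a called gene defined by an adjusted p below 0.05 together with more than a 2-fold change, edgeR's quasi-likelihood test called 0 of 11842 tested genes, or 0%, while limma-voom called 0, DESeq2 12 and edgeR's likelihood ratio test 16. An unadjusted p under 0.05 was reached by 477 genes (4.03%), 253 higher and 224 lower with quercetin. With scaling by library size only this split was 145 higher and 359 lower. Of the 5 genes, *Sod1*, *Sod2* and *Cat* had enough reads to be tested, and 0 of these 3 met either criterion. *Ccs* had too few reads and *Sod3* had none. Nothing in the labels says that pools of a group were cultured apart, so p-values measure the spread between these pools, which may be partly technical.

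Sequence sets which reads can be assigned to these genes, and the sequences printed below show where the study's own assays touch *Sod2*. *Sod1* (ENSMUSG00000022982) lies on the plus strand of GRCm38 at chr16:90220754-90226329 and has a coding sequence of 462 bases in 5 exons. A processed pseudogene, *Gm8566* (chr6:67205619-67206083, plus strand), carries a copy of that coding sequence, identical at 452 of 462 aligned bases (97.8%). As a result, 50% of the 31-base words in the coding sequence of *Sod1* also occur in a transcript of another gene. The longest stretch without a difference has 122 bases and spans exons 1 and 2 of *Sod1*, coding bases 37 to 158. A read within it that stays in 1 exon fits both genes equally well. When aligned to the genome, a read across the junction must be spliced to fit *Sod1* but not to fit *Gm8566*.

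*Sod2* (ENSMUSG00000006818, chr17:13006846-13040063, plus strand) has a coding sequence of 666 bases in 5 exons, and 0% of its 31-base words occur elsewhere. Over all 8 annotated *Sod2* transcripts the share was 26.7%, most of it outside coding sequence. It was shared with the non-coding gene *AC166110.4* (22.0% of the words) and with *Rps6ka2* (20.1%). *Rps6ka2* had at most 5 counts in any pool. *AC166110.4* is absent from the count table, so its reads could not be checked. The codon of K68 lies in exon 2 at chr17:13008362-13008364 and is shown in capitals with 15 bases on each side. The count table holds reads per gene, so it bears on the amount of *Sod2* transcript and not on the acetylation of this lysine.

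Sod2, codon of K68: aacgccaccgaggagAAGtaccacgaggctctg

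Primers matter for the same gene, because the pair that the study's primer list gives under *Sod2* matched no *Sod2* transcript. Together its primers matched 44 genes, among them *Gapdh* (product of 123 bases, exons 2 to 3). The pair listed under *Gdf9* matched 4 *Sod2* transcripts and no other gene, with a product of 166 bases from exon 2 to exon 3 (chr17:13008248-13010546), which contains the K68 codon.

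Listed as Sod2, forward: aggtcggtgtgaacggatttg
Listed as Sod2, reverse: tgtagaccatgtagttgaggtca
Listed as Gdf9, forward: gacctgccttacgactatg
Listed as Gdf9, reverse: gaagagcgacctgagttg

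*Sod2*, the dismutase of the mitochondrial matrix, held most of the reads of the group. Control pools had 517, 384 and 526 counts and quercetin pools 451, 455 and 378, which was 78.0% to 84.8% of the counts of the 5 genes in each pool. The lowest count lay in a quercetin pool and the highest in a control pool, but the groups overlapped. In CPM, *Sod2* was at 54.3 ± 7.18 in the controls against 50.1 ± 5.99 under quercetin (SD, n = 3). The fitted log2 difference of -0.11 (standard error 0.18, adjusted p = 0.988 in edgeR's quasi-likelihood test) had a 95% interval from -0.52 to 0.29, that is from 0.696-fold to 1.23-fold. A 2-fold change in either direction lay outside this interval.

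*Sod1*, the cytosolic enzyme, was the member whose pools parted. Control pools had 118, 95 and 92 counts and quercetin pools 66, 88 and 82. In CPM the control pools were at 13.2, 11.4 and 10.3, and the quercetin pools at 8.24, 9.62 and 9.62, so every quercetin pool lay below every control pool, also when scaled by library size only or by DESeq2's size factors. Among all tested genes, 5.17% showed such a separation toward lower values, and a further 5.42% showed one toward higher values. The means were 11.6 ± 1.46 and 9.16 ± 0.797 CPM (SD, n = 3), which the fit gave as -0.34 on the log2 scale (standard error 0.22, 95% interval -0.85 to 0.16, adjusted p = 0.988 in edgeR's quasi-likelihood test). The exact two-sided permutation test gave p = 0.1, the smallest value that 3 pools against 3 allow, and 0.4 after Benjamini-Hochberg adjustment over the 4 detected members. The difference therefore did not pass a test, and its interval included no change.

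The pseudogene *Gm8566* had 16, 20 and 25 counts in the controls against 15, 17 and 15 under quercetin, 11.9% to 21.4% of the sum of both genes. With its counts added, *Sod1* had 134, 115 and 117 counts in the controls against 81, 105 and 97 under quercetin. The log2 fold change of the sum was -0.34 (standard error 0.21, 95% interval -0.81 to 0.12). Other library measures parted the pools in the same direction. The 13 mitochondrially encoded protein genes held 2.23% to 2.77% of counts in the controls against 1.86% to 2.09% under quercetin, and *CT010467.1* with *Gm42418*, both at a ribosomal RNA repeat, held 0.0631% to 0.0966% and 0.0328% to 0.0417%. Their part in the *Sod1* result was not tested.

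*Cat*, the peroxisomal enzyme (ENSMUSG00000027187, chr2:103453849-103485160, minus strand, 13 exons), was near the detection limit. Control pools had 5, 2 and 15 counts and quercetin pools 12, 8 and 10. Control replicates 1 and 2 were the lowest of the 6 pools and control replicate 3 the highest, so the spread of the control group enclosed all treated pools. The level was 0.827 ± 0.758 CPM in the controls against 1.18 ± 0.312 CPM under quercetin (SD, n = 3). The log2 fold change of 0.49 had a standard error of 0.65 and a 95% interval from -0.98 to 1.96 (adjusted p = 0.988 in edgeR's quasi-likelihood test), so neither a doubling nor the absence of any change could be told from these counts. Without control replicate 3 the log2 fold change was 1.52, and without control replicate 2 it was 0.07. No exon of *Cat* overlaps another gene, and 0% of its 31-base words occur elsewhere.

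*Ccs*, the copper chaperone of SOD1 (ENSMUSG00000034108, chr19:4825366-4839332, minus strand, 8 exons), had fewer reads still. It had 6, 11 and 3 counts in the controls against 3, 5 and 3 under quercetin, or 0.775 ± 0.499 and 0.424 ± 0.106 CPM (SD, n = 3), with overlapping groups (exact two-sided permutation test, p = 0.4). Summed over pools, 20 and 11 counts gave a ratio of quercetin to control of 0.528, with an exact 95% interval of 0.229 to 1.16 that covers counting error only. A difference was not detectable with these counts. *Sod3*, the secreted enzyme (ENSMUSG00000072941, chr5:52363791-52371418, plus strand), had 0 counts in each of the 6 pools. With 3 counts as the smallest number taken to show a gene, its level could be at most 0.302 to 0.381 CPM in a pool, or 0.0577 CPM over all 51970856 counts. These limits too cover counting error only, since PCR copies of a molecule were not told apart.

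**Figure D1:**
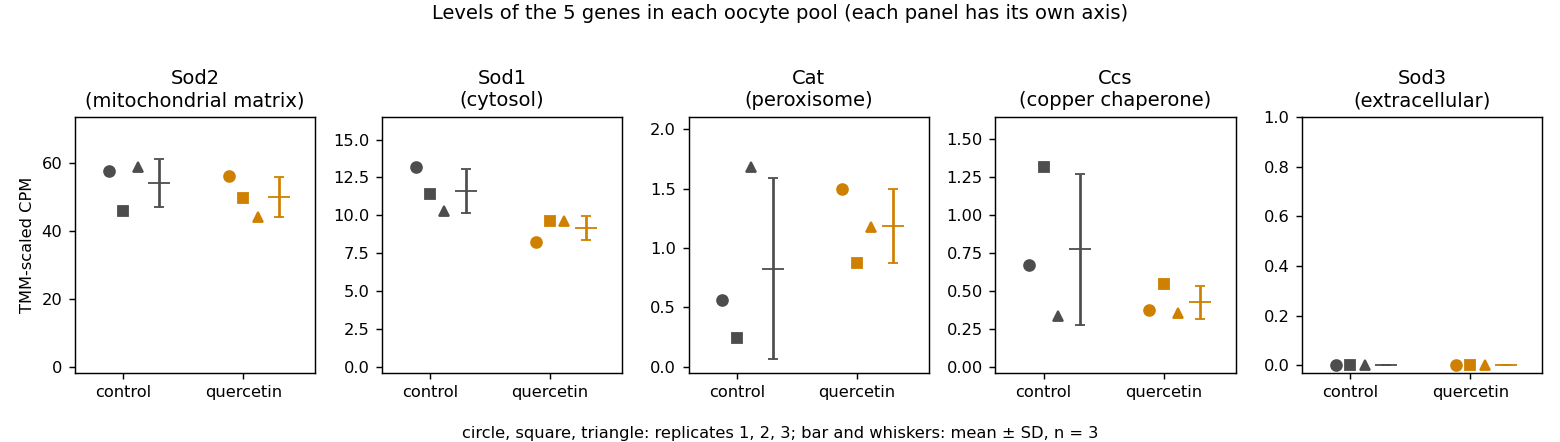
TMM-scaled CPM of the 5 genes in each pool, with a separate linear axis per panel, points for replicates 1 to 3 and mean ± SD (n = 3) beside them. *Sod2* lay near 50 CPM in both groups, each quercetin pool of *Sod1* (8.24 to 9.62 CPM) was below the lowest control pool (10.3 CPM), *Cat* and *Ccs* overlapped, and *Sod3* was at 0 throughout.

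Levels of different genes were compared as CPM per kb of transcript, within each pool. Over the union of annotated exons (10008 bases for *Sod2*, 3970 for *Sod1*), *Sod2* was at 5.42 ± 0.717 CPM per kb in control and 5.01 ± 0.599 under quercetin, and *Sod1* at 2.93 ± 0.367 and 2.31 ± 0.201 (SD, n = 3). On this scale *Sod2* was above *Sod1* in 6 of 6 pools, by 1.00 ± 0.28 on the log2 scale (exact two-sided sign-flip test over 6 pools, p = 0.0312, the smallest it can give, and 0.0469 adjusted over 3 neighbouring pairs). The order depended on the length used. The coding transcripts have 641 bases for *Sod1* and 5861 for *Sod2*, and per kb of these *Sod1* was the higher one in 6 of 6 pools, by 1.81-fold, at 18.2 ± 2.27 against 9.26 ± 1.22 CPM per kb in control pools (SD, n = 3). For this opposite order the exact two-sided sign-flip test gave the same p = 0.0312 (0.0469 adjusted over 3 pairs). The neighbouring pairs were set by mean levels in these same pools, so the p-values do not test an order chosen beforehand. *Sod2* had 4.04 to 6.83 times as many reads as *Sod1* in each pool, while gene counts did not settle which transcript was more abundant.

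*Cat* and *Ccs* followed far below on both scales. *Sod1* was above *Cat* in 6 of 6 pools, 8.08-fold per kb of exon (exact two-sided sign-flip test, p = 0.0312, 0.0469 adjusted over 3 pairs) and 50.0-fold per kb of coding transcript. *Cat* and *Ccs*, at means of 0.384 and 0.337 CPM per kb of exon over the 6 pools, did not differ beyond their spread (exact two-sided sign-flip test, p = 0.875), with *Cat* higher in 4 of 6 pools. Among the 24396 genes with at least 1 count and an annotated length, *Sod2* stood at the 80.3rd percentile of CPM per kb of exon, *Sod1* at the 73.0th, *Cat* at the 48.0th and *Ccs* at the 46.1st. Among the peroxiredoxins, thiol enzymes that also remove hydrogen peroxide, some lay above both dismutases and some did not. *Prdx1* was at 1150 ± 166 and *Prdx2* at 126 ± 33.5 CPM per kb of exon in control pools (SD, n = 3), although 68.6% and 39.2% of the 31-base words of their coding sequences occur in other genes. The glutathione peroxidase *Gpx6*, with 0.790% of such words, was at 60.3 ± 4.66 CPM per kb of exon. Over the 6 pools, *Prdx6* averaged 5.99 and the mitochondrial *Prdx3* 3.31 CPM per kb of exon, against 5.22 for *Sod2* and 2.62 for *Sod1*. Per kb of coding transcript *Prdx6* (12.1) lay below *Sod1* (16.2), and *Prdx3* (3.31) lay below both dismutases. *Prdx3* and *Prdx6* were named after their values were seen.

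**Figure D2:**
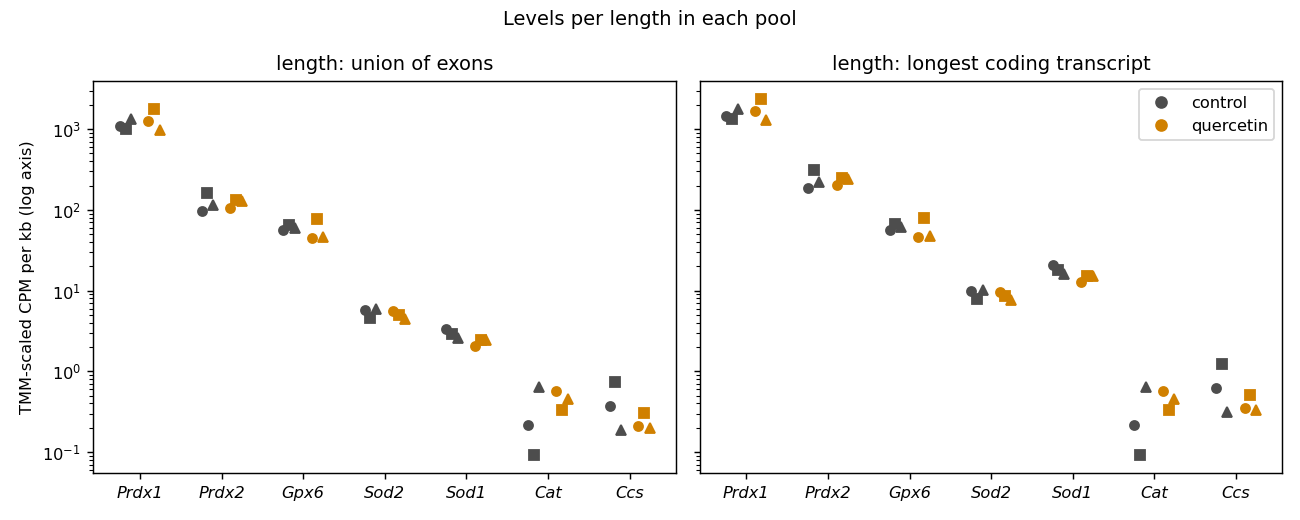
TMM-scaled CPM per kb on a log axis for 4 members and the 3 other enzymes that remove hydrogen peroxide with the highest mean CPM (*Prdx1*, *Prdx2* and *Gpx6*), per kb of the union of exons (left) and of the longest coding transcript (right), 1 point per pool, with *Sod3* (0 counts) left out. *Prdx1* was near or above 1000 CPM per kb in every pool, *Sod2* and *Sod1* changed places between the panels, and *Cat* and *Ccs* overlapped in both.

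Ratios within a pool do not depend on how libraries are scaled. The ratio of *Sod2* to *Sod1* counts was 4.38, 4.04 and 5.72 in the controls against 6.83, 5.17 and 4.61 under quercetin, a difference of 0.23 on the log2 scale (exact two-sided permutation test, p = 0.4). The fold changes of the matrix and the cytosolic enzyme were thus not shown to differ from each other. Catalase relative to the 3 dismutases, each per kb of exon, was at 0.0235, 0.0123 and 0.0758 in the controls against 0.0745, 0.0453 and 0.0655 under quercetin, 1.11 higher with quercetin on the log2 scale (exact two-sided permutation test, p = 0.4). The highest of the 6 values belonged to control replicate 3. The ratio of *Ccs* to *Sod1* was 0.0509, 0.116 and 0.0326 in the controls against 0.0455, 0.0568 and 0.0366 under quercetin, a log2 difference of -0.34 that overlapped as well (exact two-sided permutation test, p = 0.8). After adjustment over these 3 ratios the p-values ran from 0.6 to 0.8.

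**Figure D3:**
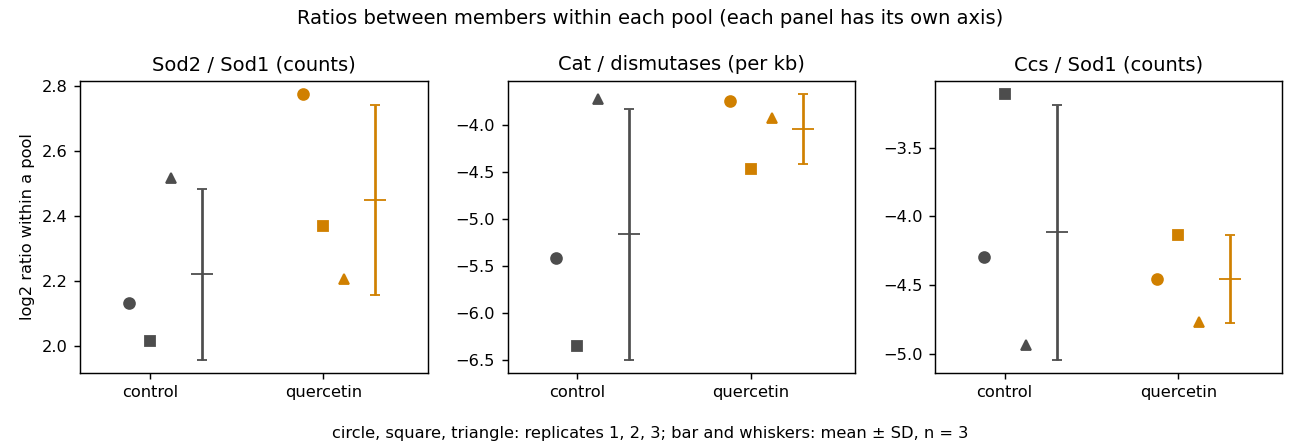
Log2 ratios of *Sod2* to *Sod1* counts, of *Cat* to the summed dismutases per kb of exon, and of *Ccs* to *Sod1* counts in each pool, with mean ± SD (n = 3) beside the points and a separate axis per panel. The control and quercetin pools overlapped in all 3 panels, and control replicate 3 lay above the other control pools for *Sod2* to *Sod1* and for *Cat* to the dismutases.

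Genes that supply, surround or regulate these enzymes were described as lists, without a test of any list. Over all 11842 tested genes the median log2 fold change was -0.03, 53.6% were lower with quercetin and 4.03% had an unadjusted p under 0.05. Of 18 genes of copper and manganese supply, 12 were tested, 8 higher and 4 lower with a median of 0.14, and 0 reached an unadjusted p under 0.05. Among them were the copper importer *Slc31a1* (log2 fold change 0.17, standard error 0.21), its relative *Slc31a2* (0.30, standard error 0.20) and the Golgi pump for calcium and manganese *Atp2c1* (0.08, standard error 0.17).

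Peroxisome biogenesis, on which the import of catalase depends, was represented by 16 peroxin genes. Of these 12 were tested, 9 higher and 3 lower with a median of 0.09, and 0 had an unadjusted p under 0.05. *Pex13* and *Pex3* act in protein import and membrane assembly. In the controls *Pex13* had 4408, 3919 and 4963 counts and *Pex3* 1132, 1191 and 1335, against 5, 2 and 15 for *Cat*. These counts are not divided by length, and 15.95% of the 31-base words of the *Pex13* coding sequence occur in other genes. The log2 fold changes of *Pex13* and *Pex3* were 0.19 and 0.16, with standard errors of 0.15 and 0.18.

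Enzymes that produce superoxide or hydrogen peroxide were mostly scarce. Of 23 such genes, 8 were tested (5 higher, 3 lower, median log2 fold change 0.10) and 7 had no count in any pool. The polyamine oxidase *Paox* was the 1 gene among them with an unadjusted p under 0.05, which 4.03% of all tested genes reached. It had 83, 94 and 64 counts in the controls against 48, 47 and 53 under quercetin (log2 fold change -0.67, standard error 0.26, adjusted p = 0.988 in edgeR's quasi-likelihood test). Every quercetin pool of *Paox* lay below every control pool in CPM, a separation shown by 5.17% of all tested genes. However, 87.4% of the 31-base words of its coding sequence occur in other genes. The NADPH oxidase *Nox4*, the peroxisomal oxidase *Acox3* and *Noxo1* had log2 fold changes of 0.32, 0.14 and 0.19, each with overlapping pools, and 70.4% of the exon length of *Noxo1* overlaps *Tbl3* on the other strand.

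Among 14 peroxiredoxins and glutathione peroxidases, 8 were tested, 4 higher and 4 lower with a median log2 fold change of 0.01. *Gpx3*, the secreted glutathione peroxidase, was the 1 gene of these with an unadjusted p under 0.05, which 4.03% of all tested genes reached. It had 327, 382 and 502 counts in the controls against 237, 245 and 209 under quercetin, without overlap, and its fitted log2 change was -0.78 (standard error 0.21, adjusted p = 0.988 in edgeR's quasi-likelihood test). *Prdx6*, a peroxiredoxin that draws on glutathione, parted the other way, with 247, 221 and 208 counts in the controls and 253, 310 and 253 with treatment. In CPM every quercetin pool of it lay above every control pool (log2 fold change 0.30, standard error 0.18, 95% interval -0.11 to 0.71), a separation shown by 5.42% of all tested genes. *Prdx1*, *Prdx2* and *Gpx6* had log2 fold changes of 0.23, -0.03 and -0.10 with overlapping pools. Of 11 regulators of the dismutases and catalase, 7 were tested, 4 higher and 3 lower (median 0.07), and 0 had an unadjusted p under 0.05. *Foxo3*, a transcription factor known to act on *Sod2* and *Cat*, had 869, 654 and 681 counts in the controls against 603, 601 and 383 under quercetin, with every quercetin pool lower in CPM (log2 fold change -0.44, standard error 0.22, 95% interval -0.93 to 0.05). *Nfe2l2*, the transcription factor NRF2 that drives antioxidant genes, separated in the opposite direction and was named after its values were seen. It had 322, 262 and 312 counts in the controls and 369, 333 and 344 with treatment, every quercetin pool being higher in CPM (log2 fold change 0.26, standard error 0.18, 95% interval -0.14 to 0.67). Neither factor reached an unadjusted p under 0.05. Separations toward lower values, as for *Gpx3* and *Foxo3*, were shown by 5.17% of all tested genes, and those toward higher values by 5.42%. *Foxo1*, a relative of *Foxo3* (log2 fold change -0.11, standard error 0.18), overlapped between groups. So did *Sirt1* (-0.08, standard error 0.18), a deacetylase other than the SIRT3 that the study followed.

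**Figure D4:**
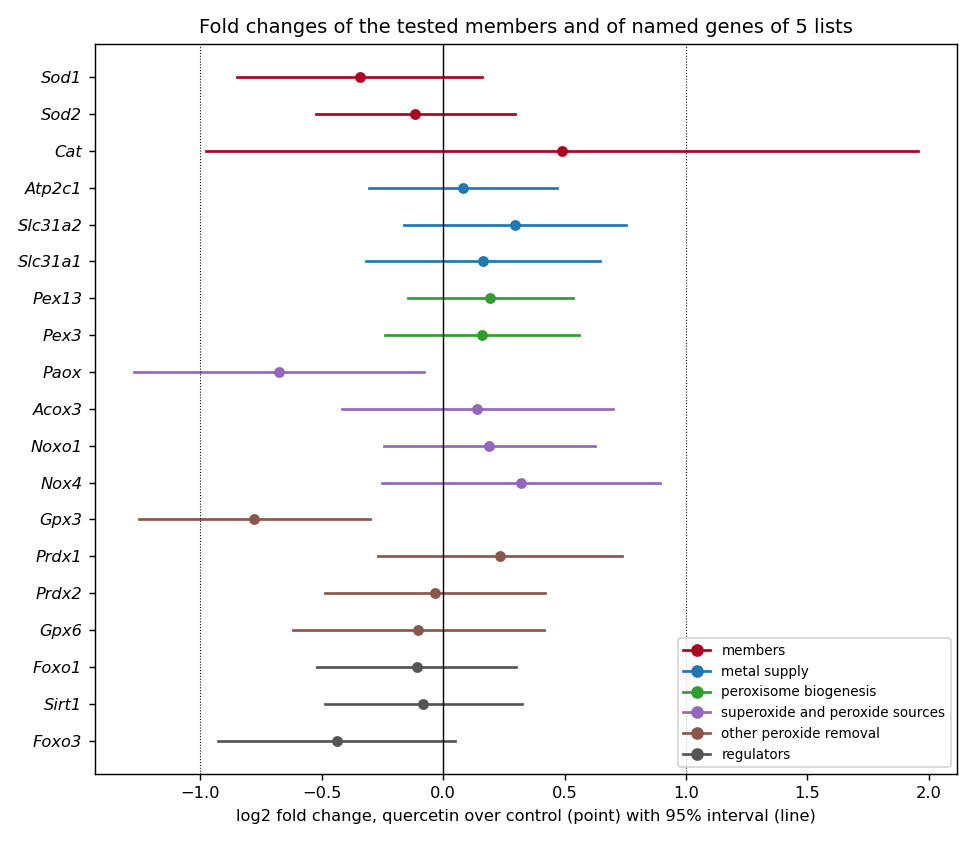
Log2 fold change (point) and 95% interval (line) from edgeR's quasi-likelihood fit for the 3 tested members and for named genes of the 5 lists, with dotted lines at a 2-fold change. The intervals of *Sod1* (-0.85 to 0.16) and *Sod2* (-0.52 to 0.29) lay within a 2-fold change, that of *Cat* reached from -0.98 to 1.96, and those of *Paox* and *Gpx3* lay below 0.

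The labelled cell type was checked against marker genes. All 11 oocyte markers were detected and tested, and their summed level was 24510 to 27960 CPM in control and 25970 to 29540 CPM under quercetin, led by *Dppa3*, *Oosp1* and *Gdf9*. *Gdf9* was the 1 oocyte marker higher in CPM in every quercetin pool (log2 fold change 0.22, standard error 0.14), a separation shown by 5.42% of all tested genes. *Ooep*, named after its values were seen, was the 1 oocyte marker with an unadjusted p under 0.05, which 4.03% of all tested genes reached. It had 4367, 8081 and 6157 counts in the controls and 1885, 2454 and 5410 with treatment (log2 fold change -0.92, standard error 0.38, adjusted p = 0.988 in edgeR's quasi-likelihood test), with overlapping pools. Of 15 cumulus and granulosa markers, 4 were tested, and *Ptx3*, *Amh*, *Amhr2* and *Foxl2* had 0 counts. The summed level of the 15 was 70.2 to 86.9 CPM in control and 92.2 to 97.3 CPM under quercetin, most of it from *Cyp19a1* (584, 486 and 612 counts against 598, 692 and 621), with *Kitl* and *Has2* next. Of the 4 tested, 3 had a positive and 1 a negative log2 fold change, from -0.68 to 0.59. *Has2* (log2 fold change 0.05, standard error 0.54) overlapped between groups. *Cyp19a1* (log2 fold change 0.22, standard error 0.15) and *Kitl* were higher in CPM in every quercetin pool. Such a separation toward higher values was shown by 5.42% of all tested genes. *Kitl* had 71, 64 and 77 counts in the controls and 95, 112 and 106 with treatment (log2 fold change 0.59, standard error 0.21, adjusted p = 0.988 in edgeR's quasi-likelihood test), and it was the 1 marker of this list with an unadjusted p under 0.05. Of 8 blood markers the 4 globin genes had 0 counts, and the list summed to 3.25 to 3.83 CPM, mainly *Cd68*, *Lyz2* and *Ptprc*. Of 6 markers of stroma, theca and endothelium, *Col1a1* and *Cdh5* had 0 counts, and the sum of 32.6 to 40.8 CPM came mainly from *Pecam1*, with *Dcn* and *Col3a1* far lower. The part of these markers in the results above was not tested. In such pools, fewer contributing cells and less RNA per cell cannot be told apart.

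The course of the members over the 6 pools was described by correlation. Pearson's r of log2 CPM was 0.105 for *Sod1* with *Sod2*, 0.416 for *Sod2* with *Cat* and -0.664 for *Sod1* with *Cat*, given as a description of 6 points that share their libraries and scaling. Among tested genes with a mean of at least 20 CPM (4596 or 4597 compared per member), those with the most similar course were *Akap17b* (r = 0.952) and *Zfp638* (r = 0.948) for *Sod1*. For *Sod2* they were *Dcps* (r = 0.982) and *Nsmce3* (r = 0.979), and for *Cat*, whose counts are few, *Tbl1xr1* (r = 0.989) and *Ndfip1* (r = 0.980). *Akap17b* had 1631, 1478 and 1474 counts in the controls against 1130, 1391 and 1387 under quercetin. *Dcps* had 213, 151 and 215 counts in control and 190, 193 and 145 under quercetin, overlapping as *Sod2* did.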

How the data were processed

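The authors made the libraries with the Smart-seq HT kit and deposited counts, whole numbers of reads per Ensembl gene and pool, without normalization or pooling. The methods name Hisat2 and GRCm38.91, whereas the submitters' processing notes name TopHat2 2.0.6, CASAVA 1.8, mm10 and GRCm38. The counting program, its strand setting and its treatment of reads with several matches are not given in the sources used here. Reads on *Sod1* and its pseudogene could therefore have been dropped, split or assigned to the other gene.

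Symbols matched 53274 of 53465 identifiers. Genes passing filterByExpr (minimum count 10) were scaled by TMM and fitted with edgeR 4.0.16 (glmQLFit, glmQLFTest) in R 4.3.3 by group alone, and p-values were adjusted by Benjamini-Hochberg across every tested gene. A called gene had an adjusted p below 0.05 with more than a 2-fold change, the cut-offs that the study states. At these cut-offs the study reports more raised and more lowered genes than any method called here. Its test for differences between groups in the sequencing data is not named in the sources used here. A standard error is the log2 fold change divided by the square root of F, and intervals (95%) use the test's degrees of freedom. CPM use TMM-scaled library sizes. Single values and ratios were compared by exact permutation tests on log2 values without a pseudocount (scipy 1.17.1, Python 3.11.15). Similarity used log2 CPM with a prior count of 2. Positions, lengths, overlaps and 31-base words came from GENCODE M21 on GRCm38, and *Gm8566* was aligned with Biopython 1.88. The fit was tested on simulated data.

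Named genes were the 5 members and, per list, tested genes with an unadjusted p under 0.05 and the 3 of highest mean CPM, for markers the 3 of highest CPM. Also named were, per tested member, the 2 genes of highest Pearson's r. A gene that this rule names is not reported here. The members and lists were chosen with earlier results of these data known. Alternatives tried included limma-voom (limma 3.58.1), DESeq2 1.42.0, the likelihood ratio test of edgeR, other scalings and filters, other lengths, 0.5 count added in ratios, leaving out each pool, and a replicate block. Adding *Gm8566* to *Sod1*, and unadjusted calls, were chosen after seeing the data. Plots used matplotlib 3.10.9.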

Additional observations from a re-analysis of the deposited data

How the results depend on the processing

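The log2 fold changes of *Sod1*, *Sod2*, *Cat* and *Ccs* kept their sign and stayed without a call under every alternative run for each. Leaving out each pool in turn moved them from -0.41 to -0.24, from -0.22 to -0.03, from 0.07 to 1.52 and from -1.23 to -0.25, the log2 difference of *Sod2* to *Sod1* from 0.07 to 0.38 and that of *Cat* to the dismutases from 0.52 to 1.83. That of *Ccs* to *Sod1* ran from -0.75 to 0.16 and turned positive without control replicate 2. For the order of levels, *Sod2* over *Sod1* ran from 0.91 to 1.06 (log2) and *Sod1* over *Cat* from 2.62 to 3.24, where 5 pools cannot give a p under 0.0625. *Cat* over *Ccs* ran from -0.21 to 0.74 and was negative without control replicate 3 or without quercetin replicate 1 or 3. Per kb of coding transcript, *Sod2* over *Sod1* became -0.86 and *Cat* over *Ccs* -0.62, by the construction of the lengths. Genes called numbered 3 with every counted gene tested, 12 with DESeq2, 16 with the likelihood ratio test, 0 to 7 without 1 pool and 103 with unadjusted p, where the cause was not tested. Genes with an unadjusted p under 0.05 numbered 241 without control replicate 2 and 1563 without quercetin replicate 3, against 477. DESeq2 gave *Cat* no adjusted p. *Ccs*, under the filter, was not run with DESeq2, the likelihood ratio test, limma-voom or the stricter filter, and *Cat* and *Ccs* could not be fitted with at least 10 counts in every pool.

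Deviations of same-numbered pools correlated by 0.296, 0.101 and -0.0303. The first of these, for control replicate 1 with quercetin replicate 1, was the highest of all pairs. In contrast, control replicate 2 correlated best with quercetin replicate 3 (0.176). The labels link the pools by number only, and these correlations cannot tell whether same-numbered pools were handled together. With the replicate block, 0 genes were called, and the log2 fold changes were -0.34 for *Sod1*, -0.11 for *Sod2* and 0.68 for *Cat*. *Cat*, *Ccs* and *Sod3* had the fewest counts of the members, and the part of depth in their results was not tested.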
